A study of Homo sapiens with 28 samples.

Results

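The 10 genes followed here, CCN1, CCN2, ANKRD1, AMOTL1, AMOTL2, AJUBA, LATS2, AXL, CRIM1 and PTPN14, are established transcriptional targets of YAP, TAZ and their DNA-binding partners, the TEAD factors. They were taken by name from the 62703 genes of the count tables, and all 10 were found. The list was chosen with earlier results of these data known, so counts over it are no independent evidence. Counts came from 24 poly(A) RNA-seq libraries in 8 groups of 3. MDST8, a human colorectal cancer (CRC) cell line of mesenchymal type, was sequenced as wild type (WT) and as 5 TWIST1 knockout (KO) clones made with CRISPR-Cas9, each grown from a single cell. Clone 1.1 is labelled TG1, clone 2.2 TG2, and clones 3.2, 3.5 and 3.6 TG3. LoVo, another human CRC cell line, was sequenced as a group labelled shRNA control and a group labelled TWIST1 shRNA, delivered by lentivirus. A supplemental figure of the study names wild type LoVo cells as the comparison for the knockdown. All cells were grown in DMEM with 10% FBS, and 1 TWIST1 ChIP-seq peak list per cell line came from wild type cells. Each KO group is 1 clone, so its replicates do not cover the spread between clones. The labels do not say that replicates were separate cultures, so p-values measure only the spread between these libraries.

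YAP and TAZ (encoded by WWTR1) are transcriptional coactivators that carry no DNA-binding domain and reach their targets through TEAD1 to TEAD4. In the Hippo pathway, the kinases MST1 and MST2 activate LATS1 and LATS2, which phosphorylate YAP and TAZ and keep them in the cytoplasm. In colorectal epithelium the pathway is known for its part in regeneration after injury and in tumor growth. Several target genes feed back on it: LATS2 is itself the kinase, the angiomotins AMOTL1 and AMOTL2 and the phosphatase PTPN14 hold YAP outside the nucleus, and AJUBA binds and restrains LATS kinases. The remaining members act at the cell surface, outside the cell or in the nucleus.

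The promoters below are shown because TEAD factors bind the core GGAATG, whose letters (or CATTCC, the same core on the other strand) are in capitals. They are RefSeq sequences on GRCh38.p14, 5′ to 3′ along the gene, from 250 bases before a start site to 50 after it. Of the 10 genes, 8 were matched in the RefSeq promoter table, with 11 start sites in all, and CCN1 and CRIM1 were not.
CCN2, chr6:131951323-131951622, minus strand: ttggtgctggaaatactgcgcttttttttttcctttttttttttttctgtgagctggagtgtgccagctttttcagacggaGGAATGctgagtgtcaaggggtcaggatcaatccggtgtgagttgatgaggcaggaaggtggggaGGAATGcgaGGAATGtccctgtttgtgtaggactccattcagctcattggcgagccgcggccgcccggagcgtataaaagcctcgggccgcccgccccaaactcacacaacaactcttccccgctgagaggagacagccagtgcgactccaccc
ANKRD1, chr10:90921038-90921337, minus strand: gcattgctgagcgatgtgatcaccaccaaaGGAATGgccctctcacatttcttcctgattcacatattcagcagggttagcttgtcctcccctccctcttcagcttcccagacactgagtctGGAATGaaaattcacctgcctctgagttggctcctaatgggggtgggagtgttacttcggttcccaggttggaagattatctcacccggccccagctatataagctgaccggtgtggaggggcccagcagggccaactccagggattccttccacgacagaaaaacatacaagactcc
AMOTL2, chr3:134374398-134374697, minus strand: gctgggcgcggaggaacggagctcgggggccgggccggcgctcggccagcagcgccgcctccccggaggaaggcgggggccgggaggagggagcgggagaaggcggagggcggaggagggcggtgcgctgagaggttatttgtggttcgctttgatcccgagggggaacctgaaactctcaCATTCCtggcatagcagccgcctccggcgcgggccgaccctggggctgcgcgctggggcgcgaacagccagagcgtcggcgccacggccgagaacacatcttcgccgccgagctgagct
LATS2, chr13:21061537-21061836, minus strand: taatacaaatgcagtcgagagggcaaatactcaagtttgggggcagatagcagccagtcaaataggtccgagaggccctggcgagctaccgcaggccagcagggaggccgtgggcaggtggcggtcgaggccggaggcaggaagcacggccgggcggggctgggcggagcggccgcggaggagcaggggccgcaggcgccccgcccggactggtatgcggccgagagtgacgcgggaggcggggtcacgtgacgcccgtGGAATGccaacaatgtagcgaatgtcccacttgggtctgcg
The CCN2 promoter held 3 cores, which began 169, 104 and 95 bases before the start site. ANKRD1 held 2, beginning 220 and 128 bases before it. AMOTL2 held 1 core 69 bases before one of its 2 start sites, and LATS2 held 1 that began 9 bases after its start. Among all 35116 promoter windows, 14% held at least 1 core on either strand, 1.37% held 2 or more and 0.128% held 3 or more. Of the 11 windows of the members, 7 held a core, belonging to CCN2, ANKRD1, AMOTL2, AJUBA, LATS2, AXL and PTPN14. An E-box with the letters CATCTG, one that TWIST1 dimers are known to bind, was in 2 of the 11 windows (AJUBA and AXL) and in 14.7% of all windows. The AP-1 letters TGANTCA were in 1 window, that of ANKRD1, and in 7.71% of all windows. None of these motifs is contained in another, and a match in these windows is a description of the letters only.

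TWIST1 itself was measured first, since it is the gene targeted. In MDST8 WT it had 845, 1034 and 797 counts, and in the clones it had 553 to 1195. TWIST1 mRNA passed the test in clone 2.2 alone, where it was 0.65 ± 0.07 (SE) lower on the log2 scale (edgeR adjusted p = 2.37e-09), and mRNA counts do not show whether an edited gene makes protein. In LoVo the counts ran against the labels. The 3 libraries labelled shRNA control had 0 TWIST1 counts each, whereas those labelled TWIST1 shRNA had 73, 89 and 93, so the LoVo groups are named by their labels throughout and no direction is attached to TWIST1 in them. The groups also differed widely elsewhere: 52.7% of all genes tested were called, among them the epithelial genes CDH17, VIL1 (-4.28 on the log2 scale) and CDX2 (-3.04) and the mesenchymal gene VIM (-3.22), each lower in the libraries labelled TWIST1 shRNA. A difference made by the shRNA cannot be told apart from exchanged labels or from cells of another origin. Of the libraries labelled TWIST1 shRNA, replicate 1 stood apart from its partners, with a chi-square per gene of 23.6 and 36.2 against 2.22 to 6.63 in every other pair of replicates and 10.9% mitochondrial counts against 6.24% and 5.47%. Without it the same number of members were called in LoVo (6) and between the lines (8). The MDST8 comparisons use no LoVo library, and every LoVo comparison rests on all 6. In MDST8 WT the 8 markers of colon epithelium summed to 69.9 to 75.6 counts per 1000000 (CPM, scaled by TMM over all 24 libraries) and CDH1 and CDX2 had no counts, while the 4 mesenchymal markers summed to 8722 to 9380 CPM. Epithelial markers summed to 8189 to 8461 CPM in LoVo shRNA control and to 3800.4 to 4251 CPM in the libraries labelled TWIST1 shRNA. Immune markers stayed below 0.71 CPM in sum in every library and endothelial markers below 1.71 CPM. Total counts ran from 16567606 to 22217009 per library.

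The members spanned a wide range of levels in MDST8 WT. Divided by gene length, as CPM per kilobase (RPKM), the level of CCN2 stood highest at 137 ± 2.97 (mean ± SD, n = 3), followed by AXL at 101 ± 0.440, CCN1 at 59.5 ± 1.30 and AMOTL2 at 53.6 ± 1.72. CRIM1 (34.7 ± 1.73 RPKM), AJUBA (25.6 ± 0.681) and AMOTL1 (17.2 ± 0.517) lay between these and PTPN14 (11.6 ± 0.226) and LATS2 (10.6 ± 0.121). ANKRD1 was lowest at 2.16 ± 0.260 RPKM. In LoVo shRNA control the order was another: AJUBA led at 31.9 ± 0.565 RPKM, CCN2 stood at 10.8 ± 0.318, AXL at 2.69 ± 0.198, and AMOTL1 was nearly silent at 0.0270 ± 0.0200 RPKM.

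**Figure D1:**
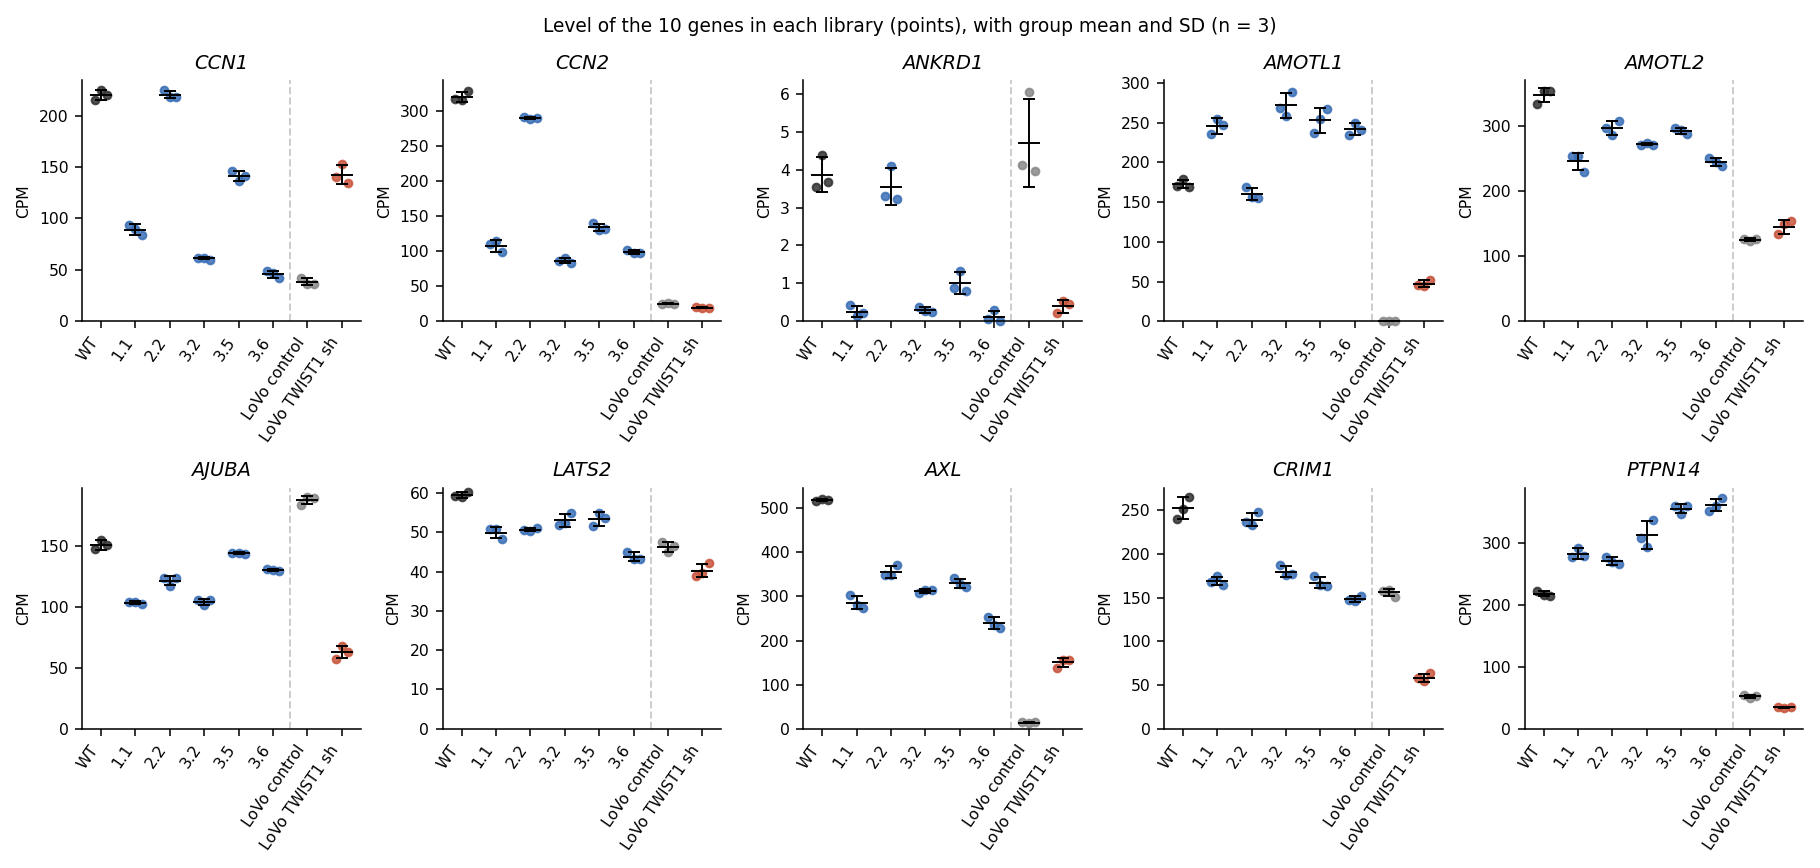
CPM of the 10 genes in each of the 24 libraries (points), with the mean and SD of each group of 3 (bars) and each vertical axis starting at 0. CCN1, CCN2 and ANKRD1 in clone 2.2 lie near WT and well above the other clones, while AMOTL1 and PTPN14 lie lowest in the LoVo groups.

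CCN1 and CCN2 encode secreted matricellular proteins that bind integrins, and both were called lower than WT in 4 of the 5 clones. Calls required a log2 fold change of more than 0.58 in size and, after Benjamini-Hochberg adjustment over all genes tested, a p-value under 0.05. CCN1 lies on hg38 at chr1:85580761-85584589. It stood at 215, 225 and 220.4 CPM in WT and at 225, 218 and 219 CPM in clone 2.2. Clone 3.5 followed at 147, 137 and 141 CPM, clone 1.1 at 93.9, 89.8 and 83.6, clone 3.2 at 61.7, 61.8 and 60.0 and clone 3.6 at 48.8, 46.7 and 42.2. The WT and clone 2.2 libraries overlapped, and no library of the other 4 clones came near them. On the log2 scale CCN1 fell by 2.28 ± 0.05 (SE) in clone 3.6, 1.87 ± 0.05 in clone 3.2, 1.31 ± 0.04 in clone 1.1 and 0.64 ± 0.04 in clone 3.5 (edgeR adjusted p at most 3.42e-15). In clone 2.2 the difference was 0.01 ± 0.04 (adjusted p = 0.901). Over the 8 groups the order of the means ran from clone 2.2 and WT through the LoVo libraries labelled TWIST1 shRNA, which overlapped clone 3.5, and clones 1.1 and 3.2, to clone 3.6 and LoVo shRNA control, which overlapped each other.

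CCN2, the other matricellular gene (chr6:131948176-131951372), is the member with 3 TEAD cores in its promoter. It stood at 317, 316 and 329 CPM in WT and at 292, 288 and 290.1 CPM in clone 2.2. The other clones were at 139.6, 131 and 132 CPM (clone 3.5), 109.9, 114 and 98.3 (clone 1.1), 102, 96.9 and 97.9 (clone 3.6) and 86.0, 90.0 and 82.7 (clone 3.2). Every library of every clone lay below the lowest WT library, those of clone 2.2 nearest to it. CCN2 fell by 1.91 ± 0.04 on the log2 scale in clone 3.2, 1.72 ± 0.04 in clone 3.6, 1.58 ± 0.04 in clone 1.1 and 1.26 ± 0.04 in clone 3.5 (edgeR adjusted p at most 3.80e-23). In clone 2.2 the value was -0.14 ± 0.04 (adjusted p = 0.00352), short of the fold threshold of 0.58. Clones 1.1 and 3.6 overlapped in CPM and the other neighbours in the order of groups did not. Of the CCN2 exons, 278 bp (11.9%) overlap the lncRNA LINC01013 on the opposite strand, and the counting did not use strand.

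In a bulk library, fewer cells that express a gene and less of its RNA per cell cannot be told apart. ANKRD1, which encodes an ankyrin repeat protein found in the nucleus and in the sarcomere of muscle (chr10:90912096-90921087), was the member with the steepest drop and the lowest counts. It had 67, 87 and 73 counts in WT and 65, 85 and 62 in clone 2.2. Clone 3.5 had 15, 25 and 16 counts, clone 1.1 had 8, 3 and 4, clone 3.2 had 7, 6 and 5, and clone 3.6 had 1, 6 and 0. WT overlapped clone 2.2, clone 3.5 stood apart between the high and the low groups, and the 3 lowest clones overlapped one another. The fitted log2 fold changes were -5.06 ± 0.41 in clone 3.6, -3.91 ± 0.35 in clone 1.1, -3.70 ± 0.34 in clone 3.2 and -1.95 ± 0.28 in clone 3.5 (edgeR adjusted p at most 2.29e-07), against -0.12 ± 0.23 in clone 2.2 (adjusted p = 0.678). A count of 0 allows up to 3 counts per library, 0.135 to 0.181 CPM over the 24 libraries, and such limits cover counting error only. ANKRD1 passed the filter on low counts through WT and clone 2.2, where it is high, and no longer passed it when any library of WT or clone 2.2 was left out.

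AXL and CRIM1 encode membrane proteins. AXL, a receptor tyrosine kinase bound by GAS6 (chr19:41219223-41261766), stood at 517, 521 and 518 CPM in WT. It was at 348, 348 and 371 CPM in clone 2.2, 341, 328 and 321 in clone 3.5, 308, 316 and 314 in clone 3.2, 303, 281 and 274 in clone 1.1 and 254, 236 and 228 in clone 3.6. No 2 neighbouring groups in this order overlapped, and all 5 clones lay below WT. AXL fell by 1.14 ± 0.04 on the log2 scale in clone 3.6, 0.86 ± 0.04 in clone 1.1, 0.75 ± 0.04 in clone 3.2 and 0.66 ± 0.04 in clone 3.5 (edgeR adjusted p at most 2.67e-16). In clone 2.2 the value was -0.54 ± 0.04 (adjusted p = 6.21e-14), just inside the fold threshold. CRIM1, a transmembrane protein with cysteine-rich repeats that binds BMPs (chr2:36355778-36551135), stood at 240.3, 252 and 265 CPM in WT and at 236, 234 and 248 CPM in clone 2.2, and these overlapped. Clone 3.2 was at 187, 176 and 177 CPM, clone 1.1 at 168, 174 and 165, clone 3.5 at 175, 164 and 163 and clone 3.6 at 148, 146 and 152. CRIM1 fell by 0.78 ± 0.04 in clone 3.6 (adjusted p = 4.23e-18), 0.60 ± 0.04 in clone 3.5 and 0.58 ± 0.04 in clone 1.1. In clone 3.2 CRIM1 was at -0.51 ± 0.04 and not called. The calls in clones 1.1 and 3.5 sat at the threshold, and without WT replicate C they ended, at -0.53 and -0.54. They also ended at -0.57 without replicate C of clone 1.1, and at -0.57 without replicate B or replicate C of clone 3.5. The call in clone 1.1 also ended with RLE or upper-quartile factors, DESeq2 and limma on log2(count + 1), at -0.58 to -0.56, and the call in clone 3.5 with upper-quartile factors, at -0.58.

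The 5 members that act on the pathway itself had values in both directions. AMOTL1 (chr11:94706431-94876748), an angiomotin that binds YAP, stood at 169.7, 179 and 169.6 CPM in WT and at 169, 156 and 156 CPM in clone 2.2. It was at 236, 255 and 247 CPM in clone 1.1, 268, 258 and 289 in clone 3.2, 237, 254 and 268 in clone 3.5 and 235, 250.0 and 241 in clone 3.6. These 4 clones overlapped one another above WT, and clone 2.2 lay just below it. Only clone 3.2 passed the fold threshold, with AMOTL1 higher by 0.64 ± 0.04 on the log2 scale (edgeR adjusted p = 9.21e-15). The other 3 were at 0.47 to 0.55, and clone 3.5 crossed the threshold at 0.58 without WT replicate B and at 0.60 without its own replicate A. PTPN14 (chr1:214348700-214552449), the tyrosine phosphatase that binds YAP, stood at 222, 216 and 214 CPM in WT and above it in every clone. It was highest in clones 3.6 (352, 359 and 372 CPM) and 3.5 (359, 347 and 359 CPM), which overlapped and rose by 0.71 ± 0.04 each (adjusted p = 2.75e-17 and 8.95e-17). In clones 3.2, 1.1 and 2.2 the values were 0.50, 0.37 and 0.32, inside the threshold.

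AMOTL2, AJUBA and LATS2 passed the fold threshold in none of the 5 clones, although their CPM lay below all 3 WT libraries throughout. For AMOTL2, the second angiomotin (chr3:134355347-134375479), WT stood at 335, 354 and 353 CPM and the clones at 230.2 to 307. Its log2 fold changes ran from -0.52 in clone 3.6 to -0.22 in clone 2.2. AJUBA, a LIM protein at cell junctions (chr14:22971177-22982551), had 147, 155 and 150.4 CPM in WT and 101 to 144 CPM in the clones, with log2 values of -0.55 in clones 1.1 and 3.2, -0.31 in clone 2.2, -0.23 in clone 3.6 and -0.07 in clone 3.5. LATS2, the kinase (chr13:20973036-21061586), had 59.3, 59.0 and 60.3 CPM in WT and 43.1 to 54.9 CPM in the clones, with log2 values from -0.46 in clone 3.6 to -0.16 in clone 3.5. In the order of the groups AMOTL2 in clones 2.2 and 3.5 and in clones 1.1 and 3.6, AJUBA in clones 3.2 and 1.1, and LATS2 in clones 3.5 and 3.2 and in clones 2.2 and 1.1 were neighbours that overlapped. In clones 1.1, 3.2, 3.5 and 3.6 these sizes were below those of CCN1, CCN2 and ANKRD1, whereas in clone 2.2 they were above them.

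**Figure D2:**
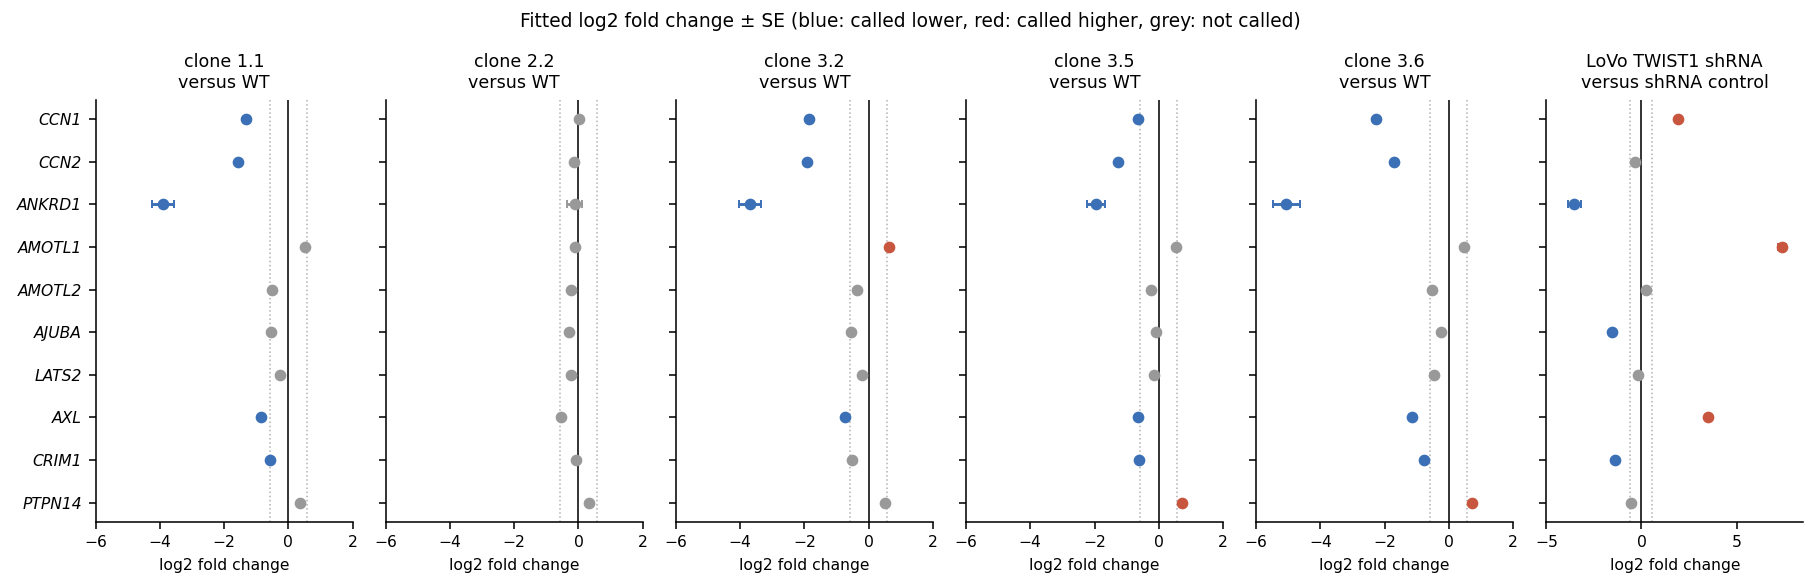
Fitted log2 fold change (horizontal axis) with its SE (bars) of the 10 genes in the 5 clones against WT and in the LoVo libraries labelled TWIST1 shRNA against shRNA control, with dotted lines at ±0.58 and a wider axis in the last panel. In clone 2.2 every gene lies inside the dotted lines, and CCN1, CCN2, ANKRD1 and AXL lie below them in the other 4 clones.

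Counted over the list, 5 members were called lower in clone 1.1, 4 in clone 3.2, 5 in clone 3.5, 5 in clone 3.6 and 0 in clone 2.2. The background was 7.49%, 6.09%, 7.25%, 11.7% and 6.64% of 13706 genes called lower in the same comparisons. ANKRD1 is in each of the counts above 0, and since it passed the filter through WT and clone 2.2, where it is high, the counts over the other 9 members were 4, 3, 4, 4 and 0 in the same order of clones. No member was called higher in clones 1.1 and 2.2, where 12% and 8.05% of genes were, and 1 was in each of clones 3.2, 3.5 and 3.6 (10.9%, 11.2% and 15.3% of genes). The count of 0 in clone 2.2 came from edgeR's test with the fold threshold and was also 0 under DESeq2. In that clone 7 of the 10 members had an unadjusted edgeR p under 0.05, but the share of all genes under that p was not computed. The median log2 fold change of the members was -0.57, -0.13, -0.53, -0.42 and -0.65 in clones 1.1, 2.2, 3.2, 3.5 and 3.6, whereas the median of all genes lay within 0.01 of 0. CCN1, CCN2, ANKRD1 and AXL were the 4 members called lower in clones 1.1, 3.2, 3.5 and 3.6 and not in clone 2.2, a pattern picked after the values were seen and shown by 1.05% of genes. Without ANKRD1 the pattern held 3 members. An F test among the 5 clones was passed by all 10 members, that is by ANKRD1 and by the other 9, beside 81.0% of all genes. The log2 fold changes of ANKRD1, CCN1 and CCN2 spanned 4.94, 2.29 and 1.77 over the clones.

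Among the coactivators and TEAD factors, TEAD4 in clone 3.5 was the only gene called lower in a clone. YAP1 stood at 296 to 302 CPM in WT and at 391 to 460.0 CPM in clones 1.1, 3.2, 3.5 and 3.6, and at 271 to 279 CPM in clone 2.2. These are log2 values of 0.40 to 0.55 in the 4 clones and -0.12 in clone 2.2, all inside the fold threshold. WWTR1, the gene for TAZ, was higher in clones 3.6 (0.97 ± 0.04), 1.1 (0.79 ± 0.04) and 3.2 (0.73 ± 0.04; adjusted p at most 1.10e-18), with 0.47 in clone 2.2 and 0.21 in clone 3.5. TEAD1 had values from -0.11 in clone 2.2 to 0.50 in clone 3.6, and TEAD3 from -0.29 to 0.26, none of them called. TEAD2 was higher in clone 1.1 alone (0.71 ± 0.06) and TEAD4 lower in clone 3.5 alone (-0.60 ± 0.07). VGLL4, a cofactor that competes with YAP for TEADs, was higher in clones 1.1, 3.2 and 3.6 by 0.67 to 0.74. Of the 8 genes tested among YAP1, WWTR1, the TEADs and the VGLL cofactors, 4, 0, 3, 0 and 2 were called higher in clones 1.1, 2.2, 3.2, 3.5 and 3.6, and 1 was called lower in clone 3.5. Of all genes, 12%, 8.05%, 10.9%, 11.2% and 15.3% were called higher in the same order, and 7.25% lower in clone 3.5.

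Among 22 Hippo kinases and upstream regulators, all of which were tested, calls went both ways. The counts called higher were 4, 1, 2, 1 and 1 in clones 1.1, 2.2, 3.2, 3.5 and 3.6, and those called lower 2, 0, 2, 1 and 2, beside 19.5%, 14.7%, 17%, 18.5% and 27% of all genes called in either direction. FRMD6, a FERM protein upstream of the kinases, fell by 1.37 ± 0.04 in clone 3.6, 0.99 ± 0.04 in clone 3.2, 0.98 ± 0.04 in clone 1.1 and 0.74 ± 0.04 in clone 3.5 (edgeR adjusted p at most 1.86e-17), and was at -0.27 in clone 2.2. NF2, which encodes the tumor suppressor merlin, fell by 1.02 ± 0.03, 0.82 ± 0.03 and 0.76 ± 0.03 in clones 3.6, 1.1 and 3.2, with -0.53 in clone 3.5 and -0.35 in clone 2.2. AMOT, the third angiomotin, was higher in clones 3.5 (1.02 ± 0.10), 2.2 (0.89 ± 0.10) and 1.1 (0.85 ± 0.10).

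**Figure D3:**
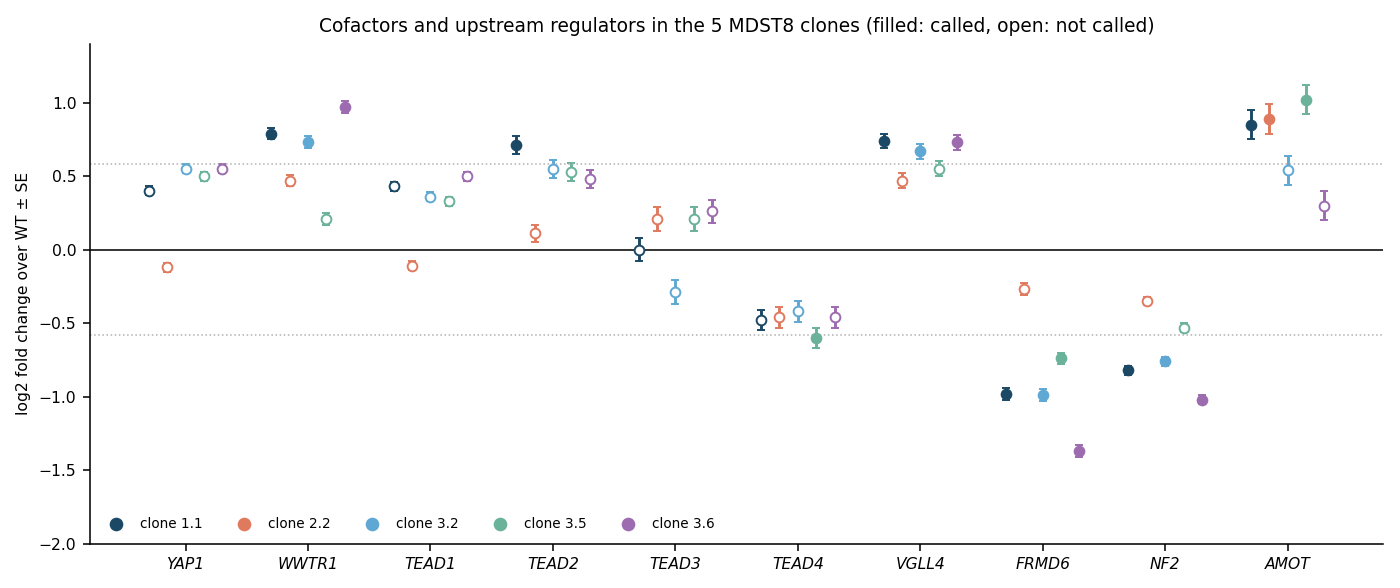
Fitted log2 fold change over WT (vertical axis) with its SE (bars) of coactivators, TEAD genes, VGLL4 and upstream regulators in the 5 MDST8 clones, with dotted lines at ±0.58. FRMD6 and NF2 lie below 0 in every clone, WWTR1, VGLL4 and AMOT above 0, and YAP1 and TEAD1 lie above 0 except in clone 2.2.

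A wider group of 14 genes from YAP and TAZ signatures did not move one way. Of these, 4, 5, 3, 3 and 5 were called lower and 2, 2, 1, 2 and 1 higher in clones 1.1, 2.2, 3.2, 3.5 and 3.6, and their median log2 fold change lay between -0.13 and 0.26. In the same order of clones, 7.49%, 6.64%, 6.09%, 7.25% and 11.7% of all genes were called lower. The shares called higher were 12%, 8.05%, 10.9%, 11.2% and 15.3%. Of the 14, 3 were called lower in all 5 clones, as were 1.06% of all genes. IGFBP3, a secreted binder of insulin-like growth factors, fell by 0.89 to 1.79, CCDC80, a matrix protein, by 0.74 to 1.65, and F3, tissue factor, by 0.75 to 1.32. F3 is among the genes the study chose on these samples, so its direction is no independent evidence. Clone 2.2 had lower IGFBP3, CCDC80 and F3 than WT, while its CCN1 overlapped WT.

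Genes of the immediate early response, many of them AP-1 and EGR factors, included 13 tested in MDST8, of which 2, 2, 3, 2 and 4 were called higher and 0, 1, 2, 1 and 3 lower in clones 1.1, 2.2, 3.2, 3.5 and 3.6. EGR1 was higher in clones 3.6 (2.83 ± 0.23), 3.5 (1.64 ± 0.24), 3.2 (1.63 ± 0.24) and 1.1 (0.63 ± 0.27; edgeR adjusted p = 0.037), and EGR3 was higher by 1.08 to 2.39 in clones 2.2, 3.2, 3.5 and 3.6. JUND was lower in 3 clones, with a median of -0.68 over the 5. The cytoskeletal targets of SRF, a factor that shares actin signals with YAP, included genes that were called in opposite directions in clone 2.2 and in other clones. MYL9, a myosin light chain, fell by 4.19 ± 0.13, 2.41 ± 0.10, 3.87 ± 0.13 and 3.05 ± 0.11 in clones 1.1, 3.2, 3.5 and 3.6 and was higher by 1.42 ± 0.08 in clone 2.2. TAGLN, encoding transgelin, fell by 2.26, 2.01 and 1.61 in clones 1.1, 3.2 and 3.6 and was higher by 0.61 in clone 2.2, whereas TPM2, a tropomyosin, was higher in 4 clones by 0.63 to 0.86. Of 9 such genes tested, 3, 5, 1, 1 and 1 were called higher and 2, 0, 2, 1 and 3 lower. Beside both lists, 12%, 8.05%, 10.9%, 11.2% and 15.3% of all genes were called higher in the same order of clones. The shares called lower were 7.49%, 6.64%, 6.09%, 7.25% and 11.7%.

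Marker genes of other cell types moved among the clones as well. Fibroblast markers, which MDST8 expresses, summed to 694 to 711 CPM in WT, 681 to 715 in clone 2.2, 1329 to 1484 in clone 1.1, 887 to 949 in clone 3.2, 1022 to 1062 in clone 3.5 and 540 to 556 in clone 3.6. Epithelial marker sums were 113 to 121 CPM in clone 2.2 and 128 to 134 CPM in clone 3.5, nearly all of it KRT8 and KRT18, against 63.2 to 82.2 CPM in the other clones, and CDX2 had no counts in 4 of the 5. Mesenchymal sums were 9122 to 15933 CPM over the clones. Mitochondrial genes took 2.38 to 4.37% of counts in MDST8. The part of these differences in the members' levels was not tested.

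In LoVo the same 10 genes split evenly. In the libraries labelled TWIST1 shRNA, CCN1, AXL and AMOTL1 were called higher and ANKRD1, AJUBA and CRIM1 lower than in shRNA control, that is 3 members each way, where 26.6% of 14270 genes were called higher and 26.1% lower. AMOTL1 and ANKRD1 passed the filter through the group where each is high, and over the other 8 members the counts were 2 each way. CCN1 stood at 42.3, 36.4 and 36.6 CPM in shRNA control and at 140.4, 153 and 134 CPM in the libraries labelled TWIST1 shRNA, a rise of 1.94 ± 0.07 on the log2 scale (edgeR adjusted p = 4.84e-13). CCN2, beside it, was at 24.8, 26.1 and 24.7 CPM and at 20.9, 18.4 and 19.4 CPM, a difference of -0.32 ± 0.09 that stayed inside the fold threshold. The groups did not overlap for either gene, and the 2 matricellular genes lay on opposite sides of the control.

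AXL had 13.9, 12.7 and 14.7 CPM in LoVo shRNA control and 138, 157 and 156 CPM in the libraries labelled TWIST1 shRNA, higher by 3.49 ± 0.08 (edgeR adjusted p = 6.80e-16). AMOTL1 had 1, 9 and 5 counts in shRNA control and 888, 761 and 936 counts in the other group, a fitted difference of 7.40 ± 0.20 (adjusted p = 5.97e-15). It passed the filter through the group where it is high, and its few control counts leave the size of this fold imprecise. ANKRD1 had 66, 118 and 69 counts in shRNA control and 4, 9 and 8 in the libraries labelled TWIST1 shRNA, a fitted log2 value of -3.54 ± 0.34 (adjusted p = 7.05e-08), and it too passed through its high group. AJUBA fell by 1.54 ± 0.06, from 184, 189.7 and 189.6 CPM to 57.5, 67.6 and 62.8 CPM. CRIM1 fell by 1.37 ± 0.07, from 158, 159 and 151 CPM to 57.5, 54.4 and 63.2 CPM. None of these 5 genes had overlapping groups. The share of all genes without overlap was not computed, and 52.7% of all genes tested were called in this comparison.

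The remaining LoVo members stayed inside the fold threshold. PTPN14 was at 54.3, 49.8 and 52.7 CPM in shRNA control and at 35.1, 33.4 and 34.4 CPM in the libraries labelled TWIST1 shRNA, a log2 value of -0.56 ± 0.07 that passed the threshold at -0.60 without shRNA control replicate B. AMOTL2 was at 123 to 127 CPM and 133 to 153 CPM (0.26 ± 0.06), and LATS2 at 44.9 to 47.5 CPM and 39.0 to 42.1 CPM (-0.16 ± 0.07). WWTR1 (1.67 ± 0.07) and TEAD2 (3.42 ± 0.15) were higher and TEAD4 lower (-1.42 ± 0.07) in the libraries labelled TWIST1 shRNA, with YAP1 at 0.56, TEAD1 at 0.35 and TEAD3 at 0.13. Of 13 other signature genes tested, 5 were higher and 7 lower. Of 14 immediate early genes, 11 were called higher, EGR1 by 4.47 ± 0.10, and FOSL2 was called lower (-1.49), with ATF3 (0.37) and SRF (-0.36) not called and a median of 2.05. Of the 20 Hippo genes tested 4 were higher and 4 lower, and of the 9 SRF targets 2 and 3. Among all genes tested in LoVo, 26.6% were called higher and 26.1% lower. Alongside, 7 of 8 epithelial markers and all 3 mesenchymal markers tested were called lower, fibroblast markers summed to 5.38 to 7.20 and 54.2 to 79.6 CPM in the groups, and mitochondrial genes took 3.49 to 3.96% and 5.47 to 10.9% of counts. Their part in the members' values was not tested.

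The differences in the cell lines were then compared directly, as the LoVo difference minus the mean of the 5 clone differences. It was called for 8 of the 10 members, beside 79.0% of the 12132 genes tested in both lines. AMOTL1 is among these 8 although it passed the LoVo filter through the group where it is high, on few control counts. AMOTL1 (LoVo 7.40, mean of the clones 0.41), AXL (3.49 and -0.79) and CCN1 (1.94 and -1.22) differed most, by 6.95 ± 0.18, 4.24 ± 0.07 and 3.12 ± 0.07 on the log2 scale (edgeR adjusted p at most 7.03e-26). By the labels, AXL, CCN1, PTPN14 (-0.56 and 0.52) and AMOTL2 (0.26 and -0.37) lay on opposite sides of their controls in the 2 lines. For AJUBA (-1.54 and -0.34) and CRIM1 (-1.37 and -0.51) the LoVo difference was the larger of 2 negative ones, and for CCN2 (-0.32 and -1.32) the smaller. ANKRD1 (-3.54 and -2.95) and LATS2 (-0.16 and -0.26) did not pass, with differences of -0.64 ± 0.48 (adjusted p = 0.22) and 0.06 ± 0.06 (adjusted p = 0.388), the former on few counts. The LoVo side of each value carries the disagreement between labels and TWIST1 counts, so the fit was repeated with the LoVo groups exchanged. It again called 8 members, beside 78.9% of genes, but not the same 8: AMOTL2 (0.12 ± 0.06, adjusted p = 0.0647) and PTPN14 (0.04 ± 0.06, adjusted p = 0.595) no longer passed, and ANKRD1 (6.50 ± 0.40) and LATS2 (0.42 ± 0.06) did. The order of sizes changed as well, to AMOTL1 (-7.81 ± 0.17), ANKRD1, AXL (-2.70 ± 0.08), AJUBA and CRIM1 (1.88 each), CCN2 (1.64) and CCN1 (-0.72). AMOTL1 and ANKRD1 passed the LoVo filter through the groups where they are high, so their sizes are imprecise. With the groups exchanged, AXL and CCN1 lay on the same side in both lines, and ANKRD1, AJUBA, CRIM1, AMOTL1, CCN2 and LATS2 on opposite sides.

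The TWIST1 ChIP-seq lists placed peaks near the 5′ end of most members, as they did for most genes. Of 338877 peaks listed in MDST8 and 333621 in LoVo, 1075 and 1550 had a q-value of at most 0.05. The LoVo shRNA control libraries had 0 TWIST1 counts, and whether the LoVo peaks mark bound TWIST1 was not tested. Within 3000 bp of the 5′ end, 8 of 10 members had a listed peak in MDST8, beside 76.5% of genes tested, and 6 of 10 in LoVo, beside 58.2%. CCN2 and ANKRD1, among the members with the largest drops in the clones, had no listed peak in this window in either line. CCN1 had 3 in MDST8 and none in LoVo, and AXL had 4 and none. Peaks were weak: the MDST8 peaks were enriched 1.76- to 4.11-fold over local background and the LoVo peaks 1.88- to 3.05-fold, and none of the 25 reached a q-value of 0.05. The strongest lay 1559 bp inside AJUBA in MDST8, at chr14:22980902-22981223 on hg38 (fold enrichment 4.11, MACS2 q-value 0.066). LATS2 followed in MDST8 at chr13:21061482-21061752 (fold enrichment 3.10, MACS2 q-value 0.36), with its summit 21 bp before the 5′ end. This peak overlaps the LATS2 promoter window printed above, whose GGAATG core lies within 50 bp of the summit. The letters CATCTG stood within 50 bp of the summit in none of the 14 MDST8 peaks and in 1 of the 11 LoVo peaks, at AMOTL1. The looser E-box letters CANNTG stood near some summits, among them AJUBA and LATS2 in MDST8, and not near others. They are common, being in 68.7% of all promoter windows and in 6 of the 11 of the members. No share over all listed peaks was computed for either motif. With peaks of p at most 0.001 alone, 2 members kept a peak in each line, beside 28.3% and 18.8% of genes. Each list comes from 1 ChIP library, so the values have no replicate check. For AMOTL1 the RefSeq start site used for its promoter lies 61925 bp downstream of the 5′ end used here. The windows that hold a TEAD core in AJUBA, AXL, AMOTL2 and PTPN14 belong to start sites 5709, 7532, 1032 and 847 bp downstream of it. The other windows of AJUBA, AXL and AMOTL2 hold no core. The CATCTG letters of AJUBA and AXL also lie in the downstream windows.

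**Figure D4:**
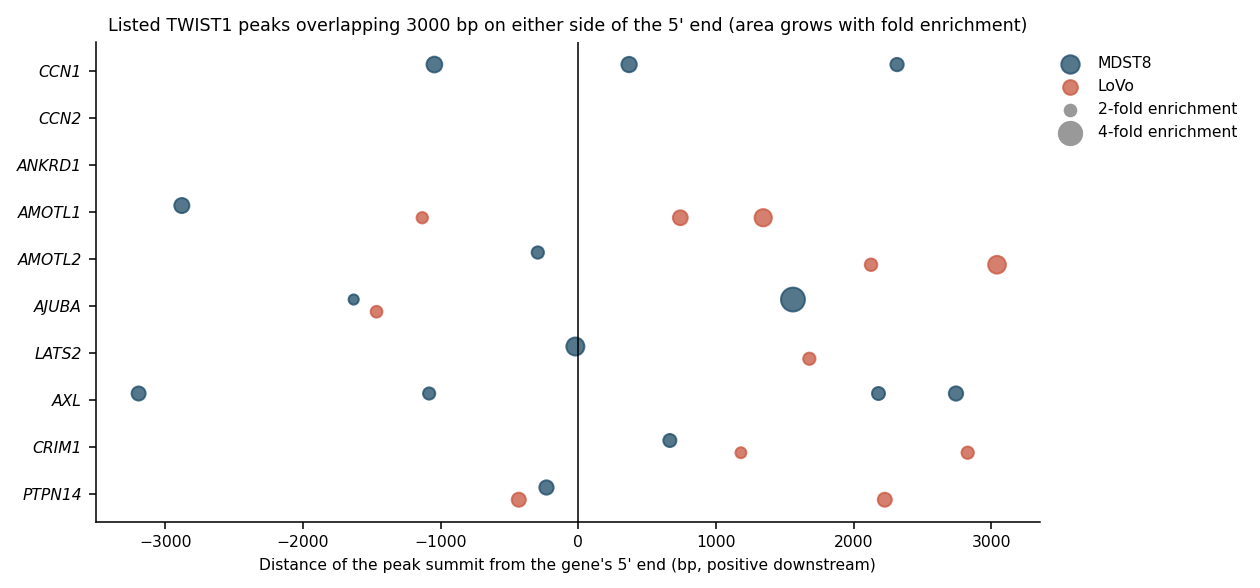
Distance of each listed TWIST1 peak summit from the 5′ end of its gene in bp (horizontal axis, positive downstream) for the 10 genes, in MDST8 and LoVo, with the area of a point growing with fold enrichment. CCN2 and ANKRD1 have no point, and the largest point is the AJUBA peak in MDST8 at 4.11-fold.

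Across the 18 MDST8 libraries, each member was set beside the protein-coding gene whose log2 CPM followed it most closely among 11923 genes. The pairs were CCN1 with HSP90AB1 (Pearson r = 0.986), CCN2 with DDAH1 (0.977), ANKRD1 with TRMT61A (0.966), AMOTL1 with GLI3 (0.970), AMOTL2 with NR2F2 (0.978), AJUBA with SERINC2 (0.948), LATS2 with DHX33 (0.970), AXL with HSPD1 (0.985), CRIM1 with AMIGO2 (0.985) and PTPN14 with PODXL2 (0.971). The libraries form 6 groups and share WT, so these values describe the likeness of group levels and carry no test. Besides CCN2, AMOTL1 shares 496 bp (4.9%) of its exons with an lncRNA on the other strand and PTPN14 shares 1213 bp (6.5%) with the pseudogene KRT18P12, while CCN1, ANKRD1 and LATS2 share none with another annotated gene.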

How the data were processed

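RNA-seq counts were deposited as a raw count of fragments per gene for each library, which the authors made with Trim Galore 0.6.6, HISAT2 2.1.0, SAMtools 1.6 and featureCounts 2.0.0 without using strand. The deposited gene length (another value, in bp) was used for RPKM only. Peaks were deposited as MACS2 2.2.7.1 output with an integer score, a fold enrichment (ratio), a −log10 p-value and a −log10 q-value, and the other deposited value, the summit offset, placed each summit. The submitters' processing notes name hg38, and all peaks lie within the chromosomes of that build. Symbols came from GENCODE release 44, matched without version to the release 43 identifiers. No column of values was left unmatched.

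Genes with a geometric mean of RPM + 1, minus 1, of at least 1 over the libraries of a cell line were tested (13706 in MDST8, 14270 in LoVo). Counts were scaled by TMM and fitted with edgeR 4.0.16 (quasi-likelihood test, R 4.3.3), with 18 MDST8 libraries in a fit, 6 LoVo libraries in another and all 24 for the difference between lines. Calls needed a log2 fold change beyond 0.58 in either direction with an adjusted p below 0.05. The F test among clones and the difference between lines needed the latter alone. The fits and the peak search were tested on simulated data. Alternatives were DESeq2 1.42.0, limma 3.58.1 with voom or on log2(count + 1), RLE or upper-quartile factors, other filters, fits of 2 groups, a replicate block, leaving out each library, exchanged LoVo groups, and for peaks windows of 1000 or 5000 bp and stricter thresholds. With 3 libraries against 3, an exact permutation test cannot go below 0.10, so single genes rest on the fits. The members, the other gene lists and the rule for named genes were chosen with earlier results of these data known. Beyond the members, YAP1, WWTR1 and the TEADs, each list gave the genes called alike in all 5 clones or, with none, its 3 tested genes with the largest median change. MDST8 clones share their WT libraries.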

Additional observations from a re-analysis of the deposited data

Results flagged for a closer look

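By the labels, the members' log2 differences differed between the cell lines by a test of the difference itself in 8 of 10 cases. The same test called 79.0% of the 12132 genes tested in both lines, so such a difference is not particular to these genes. On the log2 scale, the difference in LoVo between the libraries labelled TWIST1 shRNA and shRNA control exceeded the mean of the 5 MDST8 clones by 6.95 for AMOTL1, 4.24 for AXL, 3.12 for CCN1, 0.96 for CCN2 and 0.59 for AMOTL2. It lay below that mean for AJUBA (-1.24), PTPN14 (-1.13) and CRIM1 (-0.90). The LoVo groups disagree with their TWIST1 counts, and with the groups exchanged 8 members also differed, with ANKRD1 (6.50) and LATS2 (0.42) in place of AMOTL2 (0.12) and PTPN14 (0.04). In that fit 78.9% of all genes were called. AMOTL1 and ANKRD1 passed the LoVo filter through the groups where they are high.

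All 10 members differed among the 5 MDST8 clones in the F test. ANKRD1 is among them although it passed the filter on low counts through WT and clone 2.2, where it is high, so its span is imprecise. Every other member passed the F test as well. The log2 fold changes over WT spanned 4.94 for ANKRD1, 2.29 for CCN1, 1.77 for CCN2, 0.74 for AMOTL1, 0.71 for CRIM1, 0.60 for AXL, 0.48 for AJUBA, 0.39 for PTPN14 and 0.30 for AMOTL2 and LATS2. Clone 2.2 was the highest of the 5 for CCN1, CCN2, ANKRD1, AXL, CRIM1 and AMOTL2 and the lowest for AMOTL1 and PTPN14. As 81.0% of all genes differed among the clones, a difference among them is not particular to these genes.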

How the results depend on the processing

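Of 1166 recomputed log2 fold changes of single members, with the LoVo groups as labelled, 1149 kept their direction and their side of the thresholds. Another 16 crossed a threshold, most of them CRIM1 in clones 1.1 and 3.5, and 1 changed sign, CCN1 in clone 2.2, at -0.01 without clone 2.2 replicate A (-0.01 to 0.03 over the fits that left out 1 library). PTPN14 in LoVo passed at -0.62 with no filter, and LATS2 passed the adjusted p between lines at 0.16 with upper-quartile factors. Exchanging the LoVo groups, an alternative chosen after seeing the data, turned the sign of the difference between lines for CCN1 (-0.72), ANKRD1 (6.50), AMOTL1 (-7.81), AJUBA (1.88), AXL (-2.70), CRIM1 (1.88) and PTPN14 (0.04). Leaving out 1 library gave 3 to 5 members called in clone 1.1, 0 in clone 2.2, 4 to 5 in clone 3.2, 4 to 7 in clone 3.5, 5 to 6 in clone 3.6, 6 to 7 in LoVo, 9 to 10 among the clones and 8 between lines. The lowest value, 3 in clone 1.1 without WT replicate C, came with CRIM1 inside the threshold and ANKRD1 no longer past the filter. The value of 9 among the clones arose in fits without 1 library of clone 2.2, where ANKRD1 was again no longer past the filter. Counting only spans over 0.58, an alternative chosen after seeing the data, left 6 members that differed among clones, beside 32% of all genes. Of members with a promoter peak, 2 in MDST8 and 2 in LoVo remained at a p-value of at most 0.001, beside 28.3% and 18.8% of genes. With q-values up to 0.05 the counts were 0 and 0, beside 0.642% and 0.350%. Within 1000 bp they were 6 in MDST8 and 2 in LoVo, beside 53.4% and 32.4%, and within 5000 bp 8 and 8, beside 86.3% and 71.8%. Replicate letters did not pair the MDST8 libraries (correlations of deviations from -0.097 to 0.101), and the replicate block gave 5, 0, 5, 6 and 6 members called in clones 1.1, 2.2, 3.2, 3.5 and 3.6 and 10 among the clones, as without it. LoVo groups share no replicate names. The low counts of ANKRD1 in clones and LoVo and of AMOTL1 in LoVo limit the size of their folds.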
